A study of Mus musculus with 1646 samples.

Results

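The genes described here are the 5 lysyl oxidases of the mouse, *Lox*, *Loxl1*, *Loxl2*, *Loxl3* and *Loxl4*, and the 2 procollagen C-proteinase enhancers *Pcolce* and *Pcolce2*. They were picked by name, and all 7 were found among the 46517 genes of the count table by their Ensembl identifier. The table holds 1646 SmartSeq2 libraries, each from 1 sorted cell of the colon of male mice aged 10 to 20 weeks. The cells came from the reporter lines PdgfrbGFP (761 cells, 4 plates), Acta2GFP (567 cells, 2 plates), Cspg4dsRED (91 cells, 1 plate) and PdgfraGFP (the remaining cells, 2 plates), in which a fluorescent protein is driven by the promoter of the named gene, and CD31-positive events were left out of the sort. No line is a treatment or a disease model, the tissue of Acta2GFP mice also received elastase during dissociation, and the labels name no mouse.

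Lysyl oxidases are copper-dependent amine oxidases that turn lysine and hydroxylysine side chains of collagen and elastin into aldehydes, from which the cross-links of the fibres form outside the cell. Before fibrillar collagen can assemble, its C-propeptide is cut off by BMP1 and the tolloid proteinases, and the enhancers encoded by *Pcolce* and *Pcolce2* bind that propeptide and speed the cut. In the wall of the colon, fibroblasts around the crypts and the smooth muscle layers are the main makers of these fibres.

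Each cell carries the cluster number that the authors gave it. Following the study, clusters 7, 5, 1, 6 and 2 were read as fibroblasts ordered from the base of the crypt (7) over its middle (1) to the apex (2), and clusters 4, 3 and 8 as mural cells, namely pericytes, vascular smooth muscle cells (SMC) and interstitial SMC. Of the 1646 cells 1307 were fibroblasts and the others mural cells. Defining markers separated the 2 classes. Summed counts of 6 mural markers were 5507 to 7826 per 500000 in mural cells and 166.1 to 285.3 in fibroblasts, and those of 6 fibroblast markers were 6115 to 7420 in fibroblasts and 488 to 1212 in mural cells. In the interstitial SMC the mural markers *Notch3* (0.229) and *Cspg4* (7.92) were near 0, whereas *Hhip* stood at 1339. Markers of epithelial, immune and glial cells summed to at most 22.3, 35.2 and 3.44 per 500000 in any line of either class, lymphatic ones to at most 5.19, and both mesothelial markers were at 0. Other lists were not as low. The 5 endothelial markers reached 19.3 in a fibroblast line, 47.6 in a mural line and 81.2 in the pericytes of 1 line, and the 2 markers of interstitial cells of Cajal, *Kit* and *Ano1*, summed to 13.01 to 37.7 in fibroblast lines and 114.6 to 407.5 in mural lines. The part of these cells in the levels below was not tested. A cell held between 47598 and 1494292 counts, with a median of 248628.

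A level is here the count of a gene scaled to 500000 counts per cell. It was first averaged over cells of the same class and line, and its mean ± SD is taken across lines that had 10 or more such cells. A mean can lie far above the median cell: in the fibroblasts of PdgfrbGFP the median was 6.92 for *Lox* (mean 70.9) and 28.5 for *Pcolce2* (mean 168.6), but 499.6 for *Loxl1* (mean 527.1). To compare classes, raw counts were summed per class and line and tested with edgeR, with adjustment over all genes tested and a threshold of 0.05. The lines are thus the replicates, and the spread between them includes differences in strain, gate and dissociation. Because the authors clustered the cells on these very counts, no test between clusters is independent of how the cells were grouped.

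The 7 genes differed in abundance by orders of magnitude. Per kilobase of exon, which allows a comparison between genes, the levels in fibroblasts were 204.5 ± 23.04 for *Pcolce*, 127.3 ± 24.4 for *Loxl1*, 30.1 ± 9.09 for *Pcolce2*, 12.8 ± 3.03 for *Loxl2*, 12.7 ± 1.45 for *Loxl3*, 12.1 ± 3.39 for *Lox* and 2.15 ± 1.47 for *Loxl4* (SD, n = 4 lines). *Loxl2*, *Loxl3* and *Lox* could not be told apart by these levels. In mural cells *Pcolce* was again the highest at 56.99 ± 18.6 per kilobase, followed by *Loxl1* (13.8 ± 11.8), *Lox* (10.3 ± 0.986), *Loxl3* (5.79 ± 1.36), *Loxl2* (3.32 ± 0.449), *Pcolce2* (1.67 ± 1.49) and *Loxl4* (1.28 ± 1.75; SD, n = 3 lines). After each cell was thinned to 50000 counts, a median of 4 of the 7 genes had a count in a fibroblast and a median of 2 in a mural cell, and 5.69% of the mural cells but none of 1301 fibroblasts had a count of none of them.

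**Figure D1:**
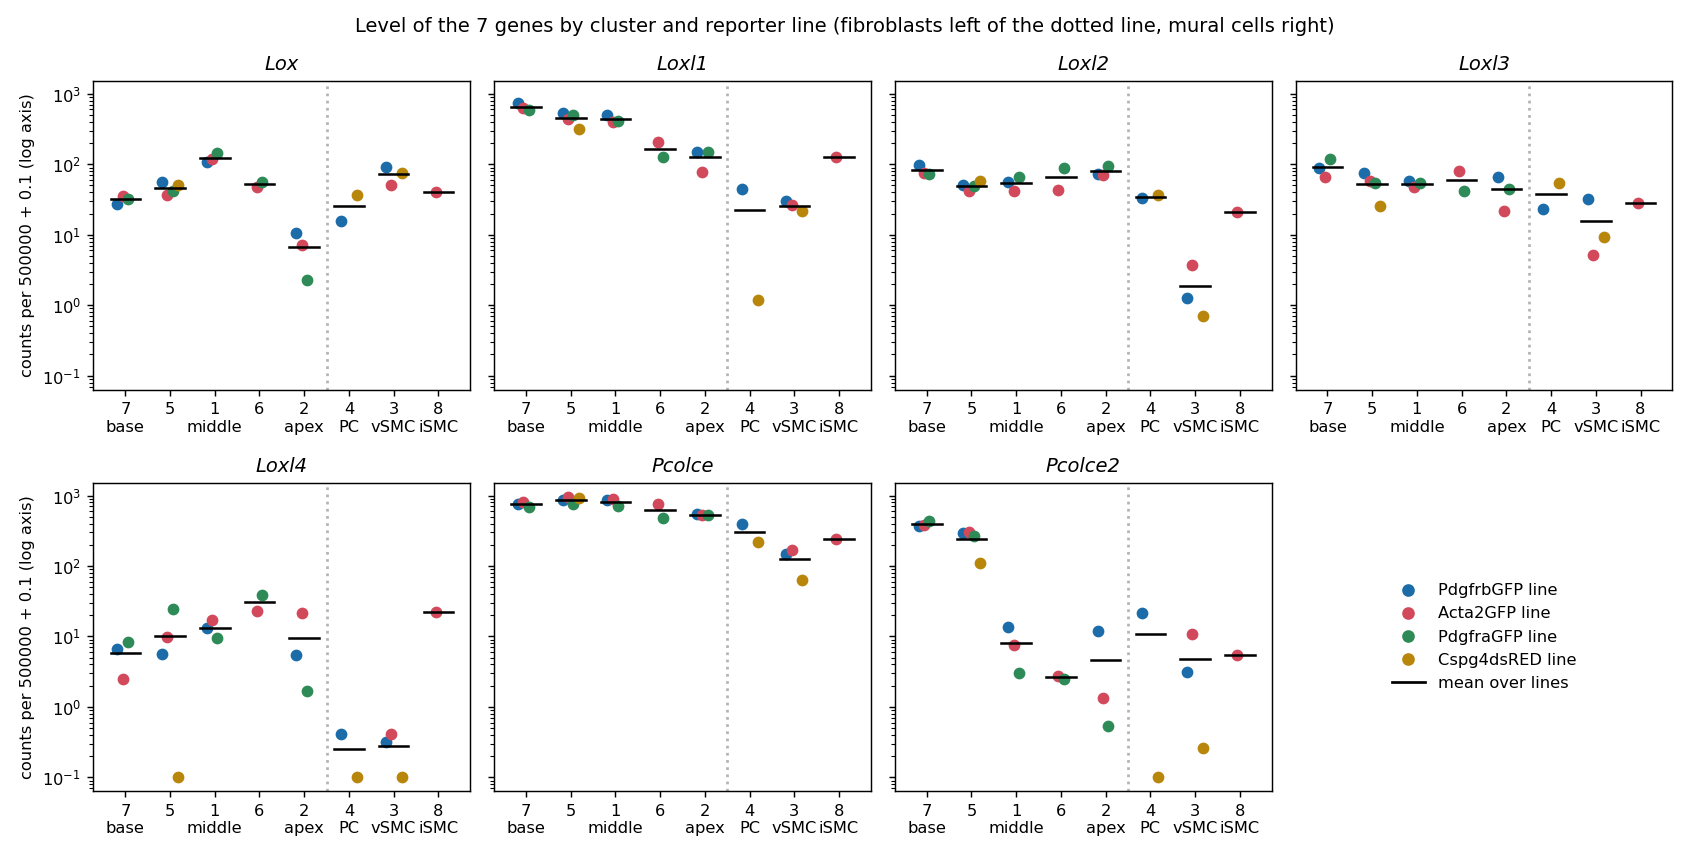
Level of each gene (counts per 500000 plus 0.1, log axis) by cluster, with a point for each reporter line with at least 10 cells and a black bar for the mean over lines; fibroblast clusters are left of the dotted line, mural clusters right (PC, pericytes; vSMC, vascular SMC; iSMC, interstitial SMC). *Pcolce2* drops from 244.4 in cluster 5 to 7.96 in cluster 1, *Lox* peaks in cluster 1 at 123.7 and is lowest in the apex cluster 2 at 6.62, and *Loxl2* is at 1.80 in vascular SMC.

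Fibroblasts were first compared with mural cells. *Pcolce*, *Loxl1*, *Loxl2* and *Pcolce2* were higher in fibroblasts in the unpaired fit, 4 of the 7 genes, and none was lower. With the line as a replicate block, which the same-line sums bear out as a pairing, 3 of the 7 were called and *Pcolce2* was not, where 3.08% of all genes were called. In the unpaired fit, of all 19173 genes tested, 3.21% were called higher in fibroblasts and 3.36% lower. The median log2 fold change was 1.92 over the 7 genes and -0.03 over all genes.

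Of the enhancers, *Pcolce* (chromosome 5 from 137605103 to 137613784 of GRCm38) was the most abundant of the 7 genes in every cluster by counts. Its level in the fibroblasts of PdgfrbGFP, Acta2GFP, PdgfraGFP and Cspg4dsRED was 825.0, 852.8, 654.6 and 795.2, respectively, against 287.4, 220.7 and 145.5 in the mural cells of PdgfrbGFP, Acta2GFP and Cspg4dsRED. The ranges did not overlap, and the log2 fold change was 1.93 ± 0.26 (SE; edgeR, adjusted p = 0.00299). *Pcolce2* (chromosome 9 from 95637601 to 95698096), the second enhancer, was at 168.6, 182.2, 106.8 and 99.97 in the fibroblasts of PdgfrbGFP, Acta2GFP, PdgfraGFP and Cspg4dsRED. In mural cells it was at 13.4, 9.71 and 0.0766 in PdgfrbGFP, Acta2GFP and Cspg4dsRED, well below every value of the fibroblasts as a class. The class level came from clusters 7 and 5 (390.6 and 244.4). Fibroblast clusters 1, 2 and 6 were at 7.96, 4.46 and 2.52, beside a mean of 7.73 in mural cells. Its log2 fold change was 4.22 ± 1.07 (edgeR, adjusted p = 0.0458). In the paired fit the log2 fold change of *Pcolce2* was 5.37 (edgeR, adjusted p = 0.0879), and without TMM factors it was 4.17 (adjusted p = 0.0515).

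Among the oxidases, *Loxl1* (chromosome 9 from 58287738 to 58313186), the form best known for elastic fibres, had levels of 527.1, 435.2, 352.6 and 364.01 in the fibroblasts of PdgfrbGFP, Acta2GFP, PdgfraGFP and Cspg4dsRED. The mural cells of PdgfrbGFP, Acta2GFP and Cspg4dsRED stood at 38.4, 87.7 and 10.8, so even the highest mural line was below the lowest fibroblast line. The log2 fold change was 3.33 ± 0.60 (edgeR, adjusted p = 0.0109). *Loxl2* (chromosome 14 from 69609068 to 69695834), an oxidase with scavenger receptor domains that also acts on the collagen IV of basement membranes, was at 62.1, 52.7, 70.9 and 91.1 in the fibroblasts of the same lines and at 19.5, 15.1 and 19.1 in mural cells. Its log2 fold change was 2.47 ± 0.38 (edgeR, adjusted p = 0.00521). These 4 genes were higher in the fibroblasts on 6 of 6 plates that held at least 10 cells of both classes. Without the PdgfrbGFP line only *Pcolce* was called, and the adjusted p was 0.109 for *Loxl1*, 0.0630 for *Loxl2* and 0.115 for *Pcolce2*; *Pcolce2* was also not called without Acta2GFP (0.208) or without PdgfraGFP (0.0591), so that its call was lost under 5 of 11 alternatives. Over these 11 the log2 fold change was 1.65 to 3.45 for *Pcolce*, 2.91 to 5.06 for *Loxl1*, 2.38 to 2.88 for *Loxl2* and 3.06 to 5.37 for *Pcolce2*. The highest value of *Pcolce* and *Loxl1* and the lowest of *Pcolce2* came from limma, which averages log2(level + 1) over cells and so is on another scale, and among the left-out lines *Loxl1* was at 4.04 without Acta2GFP and *Pcolce2* at 5.31 without PdgfrbGFP.

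The remaining oxidases were not called by edgeR. *Loxl3* (chromosome 6 from 83034173 to 83052562) ranged from 53.8 to 68.1 in fibroblast lines and from 20.0 to 32.4 in mural lines, with a log2 fold change of 1.19 ± 0.41 (edgeR, adjusted p = 0.130). It was called by limma on means per cell (adjusted p = 0.0359), which called 6.62% of all genes, and under none of the other 10 alternatives. Its exons overlap those of *Htra2* on the other strand, and as no source says that strand was used in counting, reads of the 2 genes may be mixed. *Lox* (chromosome 18 from 52516067 to 52529867), the founding member of the family, was at 70.9, 63.8, 62.2 and 34.1 in the fibroblasts of PdgfrbGFP, Acta2GFP, PdgfraGFP and Cspg4dsRED and at 48.6, 44.9 and 54.2 in the mural cells of PdgfrbGFP, Acta2GFP and Cspg4dsRED. The ranges overlapped, and the log2 fold change of -0.19 ± 0.32 (edgeR, adjusted p = 0.833) was smaller than its error. *Loxl4* (chromosome 19 from 42593982 to 42612813) was the rarest, seen in 20.4% of the fibroblasts but 5.90% of the mural cells at their full depth, and its level ranged from 0.586 to 15.1 in fibroblast lines and from 0 to 13.8 in mural lines (log2 fold change 0.77 ± 1.41; edgeR, adjusted p = 0.854).

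**Figure D2:**
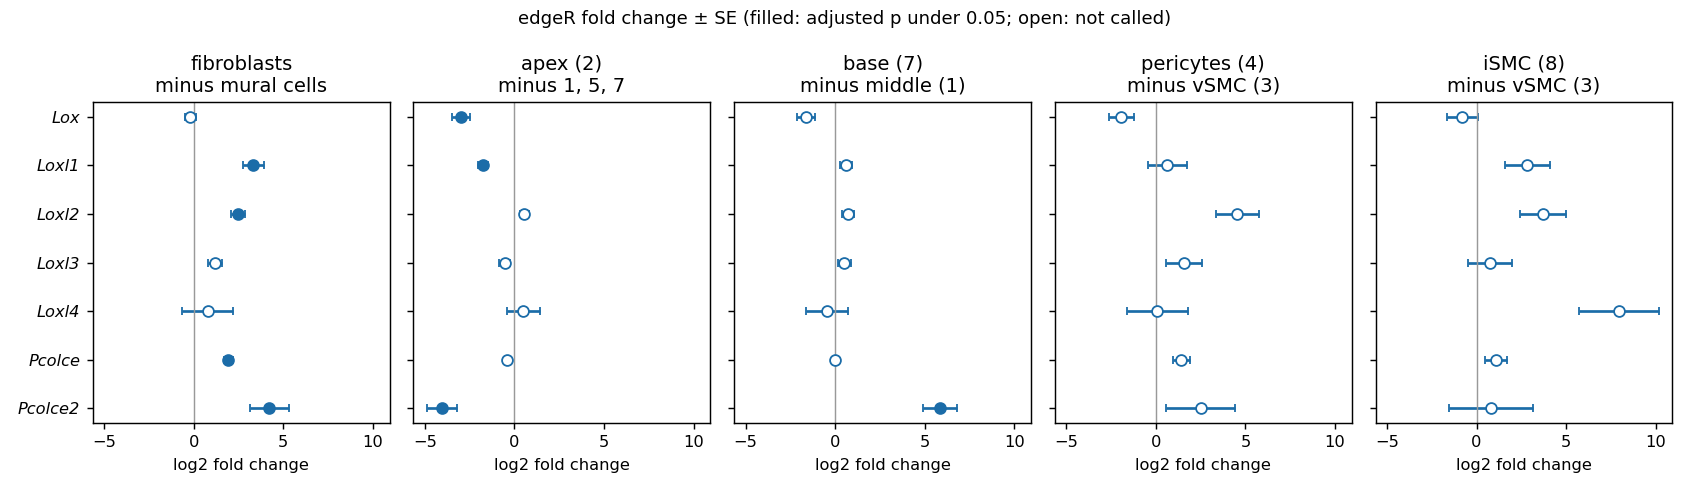
Log2 fold change (x axis) with its standard error for the 7 genes in each of the 5 comparisons; filled points passed an edgeR adjusted p of 0.05 and open points did not. *Lox* is the gene at about 0 in the first panel and among the 3 filled points left of 0 in the second, and no point is filled in the last 2 panels.

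As *Lox* had similar levels in both classes while *Loxl1* did not, the makeup of the family differed. Counted per kilobase, *Loxl1* made up 72.1 to 78.7% of the 5 oxidases in the fibroblasts of the 4 lines and *Lox* 4.85 to 8.76%. In mural cells as a class *Loxl1* made up 35.6 ± 22.2% and *Lox* 32.4 ± 12.4%, and the mural clusters differed among themselves. *Lox* made up 11.7 to 28.9% in the 2 pericyte lines and 13.8% in interstitial SMC, where *Loxl1* made up 61.4%. In vascular SMC, *Lox* made up 56.9 ± 6.39% (52.2 to 64.2% in the 3 lines) and *Loxl1* 30.3 ± 7.38%. The share of *Lox* in vascular SMC thus lay above that in every line of every fibroblast cluster, the highest of which was 16.3% in cluster 1. With the coding length in place of the exon length, the share of *Lox* was 13.8% in fibroblasts and 72.9% in vascular SMC. These shares are descriptions and were not tested.

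**Figure D3:**
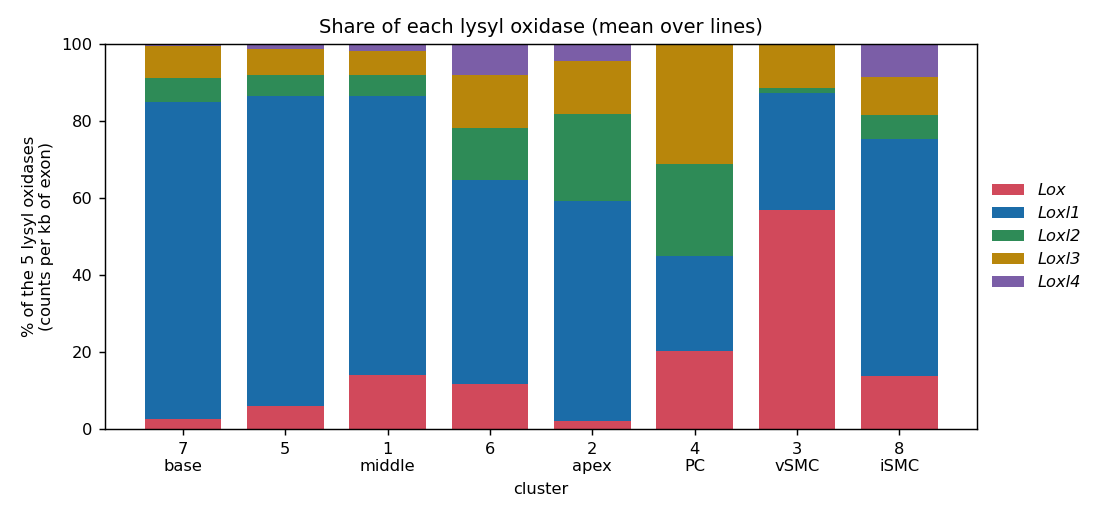
Share of each lysyl oxidase in the summed counts per kilobase of the 5 oxidases (y axis, percent, mean over lines) for each cluster. *Loxl1* makes up 82.2% at the crypt base and 56.96% at the apex, and *Lox* makes up 56.9% in vascular SMC.

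Along the crypt, fibroblasts of the apex (cluster 2) were compared with those of clusters 1, 5 and 7. *Pcolce2*, *Lox* and *Loxl1* were lower at the apex, and the other 4 genes were not called. Of all 18924 genes tested, 2.72% were called lower at the apex and 4.79% higher, and the median log2 fold change was -0.54 over the 7 genes and 0.02 over all genes.

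*Lox* had levels of 10.5, 7.11 and 2.21 in the apex fibroblasts of PdgfrbGFP, Acta2GFP and PdgfraGFP, against 75.3, 70.04, 86.2 and 36.7 in clusters 1, 5 and 7 of PdgfrbGFP, Acta2GFP, PdgfraGFP and Cspg4dsRED. All apex values lay below all others, with a log2 fold change of -2.98 ± 0.49 (edgeR, adjusted p = 0.000925). The level of *Lox* at the apex rested on few cells, as 5 of 44 cells with a count held 78.7% of it. At 50000 counts per cell, *Lox* had a count in 16.8% of the apex cells and in 53.5% of 1125 cells of clusters 1, 5 and 7. *Loxl1* was at 151.5, 77.8 and 150.7 in the same apex lines and between 391.1 and 552.8 in clusters 1, 5 and 7 (log2 fold change -1.75 ± 0.28; edgeR, adjusted p = 0.000806). In contrast to *Lox*, *Loxl1* kept a count in 80.9% of the apex cells at the thinned depth.

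*Pcolce2* was at 11.7, 1.24 and 0.429 at the apex and between 107.7 and 204.996 in clusters 1, 5 and 7 (log2 fold change -4.05 ± 0.83; edgeR, adjusted p = 0.00514). This level was that of clusters 5 and 7, as cluster 1 alone was at 2.91 to 13.5 and overlapped with the apex. Cluster 6 was low as well (2.52), so a low level was not particular to the apex. *Lox*, *Loxl1* and *Pcolce2* were lower at the apex on 5 of 5 plates, with differences of log2(level + 1) of -5.80 to -2.37, -2.61 to -1.17 and -7.22 to -3.38, respectively. Genes of the dissociation response moved with the apex, where the mean log2(level + 1) of 16 such genes was 7.78 (7.33 to 8.28 in the lines) against 5.35 (4.69 to 6.07) in clusters 1, 5 and 7, and their part in these results was not tested. The sum of the 6 fibroblast markers was lower at the apex, at 4865 to 6344 against 6634 to 7760. This is a sum and not a statement on each marker, since it includes *Tnc* and *Cd34*. The paper describes apex fibroblasts as positive for *Tnc* and negative for *Cd34*. Markers of interstitial cells of Cajal summed to 98.1 to 219.6 in the apex lines against 0.192 to 23.1 in clusters 1, 5 and 7, and the 4 of interstitial SMC to 261.6 to 355.8 against 69.96 to 121.7, and their part was not tested either. Without the Acta2GFP line the call was kept by *Loxl1* and lost by *Lox* (adjusted p = 0.0645) and *Pcolce2* (0.136). The log2 fold change ranged over the alternatives from -3.88 to -2.17 for *Lox*, -2.90 to -1.58 for *Loxl1* and -5.61 to -3.65 for *Pcolce2*, with -3.88 and -5.61 from the fit without PdgfrbGFP and -2.17 and -2.90 from limma.

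*Pcolce* was only modestly different, at 521 to 541 in the apex lines and 737 to 888 in clusters 1, 5 and 7. Although these ranges did not overlap, the log2 fold change of -0.40 ± 0.14 was not called (edgeR, adjusted p = 0.119). It was lower on 5 of 5 plates, and it was called under 4 of 11 alternatives, among them the line as a replicate block (-0.37 ± 0.10; edgeR, adjusted p = 0.0378), with which 8.45% of all genes were called. *Loxl2* was not called either, with 69.8 to 94.5 at the apex and 51.2 to 86.1 in clusters 1, 5 and 7 (log2 fold change 0.55 ± 0.26; edgeR, adjusted p = 0.268). It was higher at the apex on 5 of 5 plates, with differences of log2(level + 1) of 0.0380 to 0.992. As *Loxl1* was lower and *Loxl2* was not, *Loxl2* made up 22.8 ± 4.82% of the oxidases per kilobase at the apex and 6.59 ± 2.45% in clusters 1, 5 and 7. *Loxl3* (21.4 to 66.2) and *Loxl4* (1.56 to 21.6) varied widely among the apex lines and were not called.

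Within the deeper fibroblasts, the base of the crypt (cluster 7) was compared with its middle (cluster 1). *Pcolce2* was the single gene of the 7 that was called, and it was higher at the base, where 0.333% of all 18924 genes were called higher and 0.576% lower. Its levels were 363.4, 378.6 and 429.7 at the base in PdgfrbGFP, Acta2GFP and PdgfraGFP and 13.5, 7.51 and 2.91 in the middle. No line overlapped, and the log2 fold change was 5.84 ± 0.96 (edgeR, adjusted p = 0.00699). In the paired fit, which called 1.46% of all genes, it was 6.34 ± 0.87 (edgeR, adjusted p = 0.00453). Cluster 5, placed between them, had 295.9, 301.2, 270.4 and 110.2 in PdgfrbGFP, Acta2GFP, PdgfraGFP and Cspg4dsRED. The order of levels was therefore cluster 7, cluster 5 and, far below, the other 6 clusters, which lay between 2.52 and 10.8 and of which neighbours in this order overlapped. Without the Acta2GFP line the log2 fold change was 5.85 but was not called (adjusted p = 0.263), in a fit that called 15 genes in all.

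Low counts of *Pcolce2* were widespread. At the deposited depth 76.2% of the cells of cluster 1 and 47.5% of the mural cells had a count, against 98.2% of cluster 7. On a plate, the raw count of *Pcolce2* in a cluster 1 cell went with the mean raw count around it. That mean was taken over cells of the same row or column outside its own cluster or, for mural cells, outside their class. These counts were not scaled to depth, and the part of depth in the correlation was not tested. Averaged over 8 plates, Spearman's rho across cells was 0.507, and it was 0.467 for mural cells (6 plates) and 0.504 for apex cells (5 plates). Cells of a plate are not replicates. The rho in these 3 sets was 0.128, 0.0903 and 0.108 for *Lox*. In mural cells it was 0.334 for *Loxl1*, 0.276 for *Loxl4*, 0.250 for *Loxl2*, 0.167 for *Pcolce* and 0.133 for *Loxl3*, and for *Loxl1* it was 0.272 at the apex. The part of neighbouring wells in the low counts of *Pcolce2* and the others was not tested.

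*Lox* had lower levels at the base than in the middle in each line. It was at 27.4, 35.1 and 32.2 at the base in PdgfrbGFP, Acta2GFP and PdgfraGFP and at 108.4, 120.5 and 142.3 in the middle, without overlap. The log2 fold change was -1.62 ± 0.51 and was not called (edgeR, adjusted p = 0.207), although *Lox* was lower at the base on 5 of 5 plates, with differences of log2(level + 1) of -2.47 to -1.34. Over 11 alternatives of the test, the paired fit among them, *Lox* was not called either. The log2 fold change ranged over these from -2.08 to -1.56 and the adjusted p from 0.0512 to 0.810. Cluster 1 had the highest level of *Lox* of all clusters (123.7 ± 17.1), followed by vascular SMC (72.5 ± 21.01), and by means per cell no line of cluster 1 overlapped with a line of vascular SMC. By pooled counts of each line they did overlap (99.7 to 123.1 and 47.8 to 109.7), as they did by plate (72.8 to 182.9 and 35.9 to 119.8). *Loxl1* (590.7 to 742.1 at the base, 401.1 to 501.4 in the middle; log2 fold change 0.60 ± 0.31), *Loxl2* (0.69 ± 0.34) and *Loxl3* (0.52 ± 0.38) were not called, with edgeR adjusted p of 0.584, 0.535 and 0.835, and of 0.382, 0.229 and 0.706 in the paired fit. *Loxl1* and *Loxl3* were higher at the base on 5 of 5 plates, with differences of log2(level + 1) of 0.503 to 0.817 and 0.299 to 1.48, and *Loxl2* on 4 of 5. The 6 mural markers summed to 27.9 to 107.8 in the base lines and 162.4 to 340.03 in the middle lines, without overlap and in the same direction as *Lox*, and their part in the levels was not tested. *Pcolce* differed by less than its error (-0.01 ± 0.17; edgeR, adjusted p = 1).

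**Figure D4:**
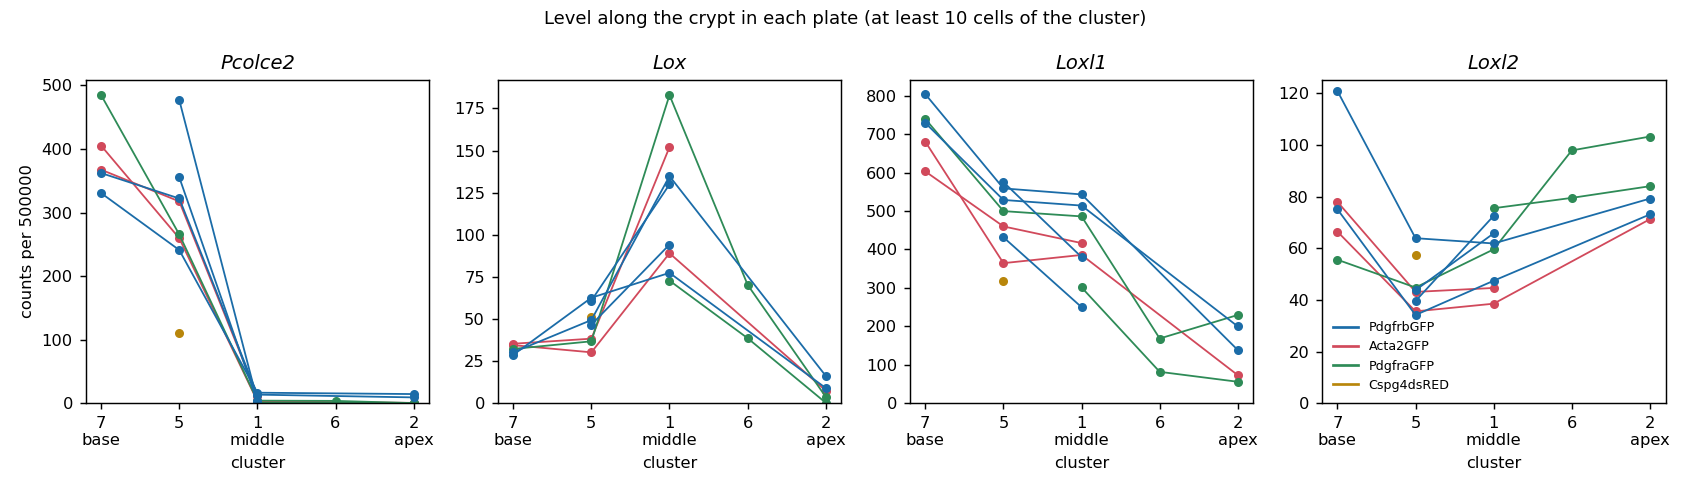
Level (counts per 500000, linear axis) of *Pcolce2*, *Lox*, *Loxl1* and *Loxl2* in the fibroblast clusters from the base to the apex, with a line for each plate with at least 10 cells of the cluster, coloured by reporter line. In the 5 plates with both clusters *Pcolce2* is higher in cluster 7 than in cluster 1, and in the same plates *Lox* is lower.

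The same cells could hold both genes. In cluster 1 at the thinned depth, *Lox* had a count in 70.3% of the cells with a count of *Pcolce2* and in 61.6% of those without. In cluster 5 these shares were 48.4% and 44.7%, and in cluster 7 *Lox* had a count in 36.7% of the cells with *Pcolce2* and in 4 of the 10 cells without. In the other 5 clusters the shares lay further apart, at 36% and 12.3% at the apex, 60% and 22.5% in cluster 6, 36.7% and 14.5% in pericytes, 73.1% and 50.9% in vascular SMC and 58.3% and 19.05% in interstitial SMC. These shares were not tested, and the low counts of *Pcolce2* that they rest on went with those of neighbouring wells, as given above.

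Ordered by their mean over all 8 clusters, the other oxidases followed different courses. *Loxl1* stood in steps, with the crypt base (652.9 ± 79.2) above clusters 5 (447.4 ± 96.8) and 1 (440.1 ± 53.7), and these above cluster 6 (167.3 ± 54.97), the apex (126.7 ± 42.3) and interstitial SMC (124.97), whose lines overlapped, followed by vascular SMC (25.7 ± 4.03) and pericytes (22.6 ± 30.5). *Loxl2* was highest at both ends of the crypt, at the base (81.7 ± 14.3) and the apex (79.2 ± 13.4), but its lines overlapped with those of the neighbouring clusters in this order down to cluster 5 (49.3 ± 6.78). Pericytes (34.8 ± 1.71), interstitial SMC (20.9) and vascular SMC (1.80 ± 1.59) lay below, each apart from the next. *Loxl3* ranged from 90.6 ± 25.2 at the base to 15.6 ± 14.7 in vascular SMC, and every neighbour in its order overlapped with the next. *Pcolce* lay between 531.9 ± 9.71 (apex) and 875.8 ± 81.8 (cluster 5) in fibroblast clusters and between 126.7 ± 55.7 (vascular SMC) and 306.3 ± 121.95 (pericytes) in mural clusters.

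Mural cells were compared among themselves with less material, since pericytes gave sums for 2 lines, vascular SMC for 3 and interstitial SMC for 1, which was assumed to vary like the others. That sum came from Acta2GFP, whose tissue also received elastase, and the part of line and dissociation was not tested. None of the 7 genes was called by edgeR between pericytes and vascular SMC, where 0.263% of 16328 genes were called higher in pericytes and 0.404% lower. *Pcolce*, *Loxl2* and *Lox*, 3 of the 7 genes, had an unadjusted p under 0.05, as had 10.9% of all genes. DESeq2 called 1 gene, *Loxl2*, and 5.92% of all genes, and limma called none of the 7 and 0.435% of all genes. Same-line sums of pericytes and vascular SMC correlated by 0.150 to 0.157 over 2 pairs. With the line as a replicate block none of the 7 was called, and 1.04% of all genes were.

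*Loxl2* was at 33.5 and 35.97 in the pericytes of PdgfrbGFP and Cspg4dsRED and at 1.18, 3.60 and 0.612 in the vascular SMC of PdgfrbGFP, Acta2GFP and Cspg4dsRED. The ranges were far apart and the log2 fold change was 4.54 ± 1.20 (edgeR, adjusted p = 0.155), while over the 11 alternatives of the test the adjusted p ranged from 0.000165 to 0.288 and the log2 fold change from 1.44 (limma) to 5.57 (without Acta2GFP). It was higher in the pericytes of 3 of 3 plates, with differences of log2(level + 1) of 3.65 to 4.72. At the thinned depth *Loxl2* had a count in 33.6% of pericytes and 11.4% of vascular SMC. *Pcolce* was at 392.5 and 220.03 in the pericyte lines and 148.3, 168.5 and 63.4 in the vascular SMC lines (log2 fold change 1.43 ± 0.49; edgeR, adjusted p = 0.300). *Lox* had 15.6 and 36.2 in pericytes and 92.7, 50.8 and 74.05 in vascular SMC (-1.93 ± 0.69; edgeR, adjusted p = 0.329), and was lower in the pericytes of 3 of 3 plates. Of the pericytes 5 held 71.02% of the level of *Lox*, and in Cspg4dsRED 4 of 33 pericytes had a count. *Loxl1* differed more between the pericytes of the 2 lines (44.1 and 1.07) than from vascular SMC (21.5 to 29.6). The summed fibroblast markers differed likewise between these pericytes, at 1921 in PdgfrbGFP and 787 in Cspg4dsRED, and their part in the levels of *Loxl1* was not tested. Several marker lists separated the pericyte lines from the vascular SMC lines without overlap. The dissociation genes had a mean log2(level + 1) of 4.17 to 4.42 in pericytes and 6.92 to 7.76 in vascular SMC, endothelial markers summed to 35.5 to 81.2 and 7.68 to 10.7, fibroblast markers to 786.7 to 1921 and 160.2 to 774.2, and interstitial SMC markers to 571.2 to 852.5 and 1416 to 1508. Their part in the levels of *Loxl2*, *Pcolce* and *Lox* was not tested.

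Between interstitial and vascular SMC none of the 7 genes was called by edgeR, where 0.398% of the genes were called higher in interstitial SMC and 0.643% lower, and the median log2 fold change of all genes was -0.31. *Loxl1*, *Loxl2* and *Loxl4*, again 3 genes, had an unadjusted p under 0.05, as had 9.3% of all genes. DESeq2 called *Loxl2* and *Loxl4* and 5.89% of all genes, and limma called *Loxl4* and 2.11% of all genes. Between interstitial SMC and the vascular SMC lines the fibroblast markers also differed (1222 against 160.2 to 774.2), as did those of interstitial cells of Cajal (23.6 against 245.3 to 363.8), those of interstitial SMC (2994 against 1416 to 1508) and the dissociation genes (mean log2(level + 1) of 6.37 against 6.92 to 7.76), and their part in the levels was not tested. *Loxl4* was at 22.1 in the interstitial SMC of Acta2GFP, the sum tested, and at 0.222, 0.313 and 0 in the vascular SMC of PdgfrbGFP, Acta2GFP and Cspg4dsRED (fitted log2 fold change 7.94 ± 2.24; edgeR, adjusted p = 0.172, and 0.00178 to 0.705 over 10 alternatives). Over these the log2 fold change ranged from 0.69 (limma) to 8.97 (at least 3 cells per sum), and without limma from 6.76 upward. In the 4 interstitial SMC of PdgfrbGFP, too few for the test, its level was 99.9. The signal rested on few cells, as 8 of 56 interstitial SMC had a count of *Loxl4* and 5 of them held 98.9% of its level. The same held for fibroblasts of cluster 6, which had the highest level of *Loxl4* of all clusters (30.99 ± 11.6, n = 2 lines) and where 5 of 7 cells with a count held 99.7% of it. For *Lox*, too, 5 cells held 79.2% of the level in interstitial SMC and 84.5% in cluster 6. *Loxl1* was at 124.97 in interstitial SMC and 126.7 ± 42.3 in apex fibroblasts, and *Loxl2* was at 20.9.

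The other genes of the pathway were taken from a list of 40 genes in 8 roles, from the fibrillar substrates to copper supply. Between fibroblasts and mural cells 39 were tested, of which 16 were higher in fibroblasts, 1 was lower and 22 were not called, beside 3.21% and 3.36% of all genes, with a median log2 fold change of 1.22 on the list and -0.03 over all genes. All calls of this list come from the unpaired fit, and paired values are not given for it. Between these classes the unpaired fit called 6.57% of all genes and the paired fit 3.08%, so some calls of the list may not hold in the paired fit. All 6 substrates were higher, led by *Col1a1* (2.82), *Col5a1* (2.74) and *Col1a2* (2.26), chains of the fibrillar collagens I and V. *Col1a1* is also among the fibroblast markers used above. *Bmp1*, the C-proteinase whose cut the enhancers speed, was higher by 2.26 ± 0.32 (edgeR, adjusted p = 0.00378), and so were the N-proteinases *Adamts3* (7.33) and *Adamts2* (2.09). *Plod2*, the lysyl hydroxylase of collagen telopeptides, was higher by 2.78, whereas *Plod1* and *Plod3* were not called. Of 10 prolyl hydroxylase genes, *P4ha3* (5.39) and *P4hb* (1.07) were higher in fibroblasts and *P3h2* was lower (-3.72). The chaperones and glycosyltransferases *Colgalt2* (5.05), *Fkbp14* (3.02) and *Fkbp10* (1.33) and the scaffold *Fn1* (2.84) were also higher, and none of the 3 copper genes was called.

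At the apex, of 39 tested, 6 were higher than in clusters 1, 5 and 7, 5 were lower and 28 were not called, beside 4.79% and 2.72% of all genes, with a median log2 fold change of 0.13 on the list and 0.02 over all genes. None of the 5 collagen chains was called, at log2 fold changes between 0.18 and 0.67. In contrast *Eln*, the gene of elastin, was at 10.4 ± 15.8 at the apex (n = 3 lines) and 216.6 ± 43.8 in clusters 1, 5 and 7 (n = 4 lines), with a log2 fold change of -3.86 ± 0.89 (edgeR, adjusted p = 0.0113). *Fbln5*, a scaffold of elastic fibres, was lower as well (-2.46 ± 0.53; edgeR, adjusted p = 0.00660). *P4ha3* (-5.46), *Adamts2* (-4.59) and *Bmp1* (-0.88) were also lower. Higher at the apex were *P3h2* (5.59), *Adamts3* (3.64), the copper pump *Atp7a* (1.78), *Fkbp10* (0.89), *Postn* (0.84) and *P4hb* (0.49). Between base and middle, in the unpaired fit, *Tgm2* (-1.98) and *Postn* (-1.19) were lower at the base and 37 genes were not called, beside 0.333% of all genes called higher and 0.576% lower.

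**Figure D5:**
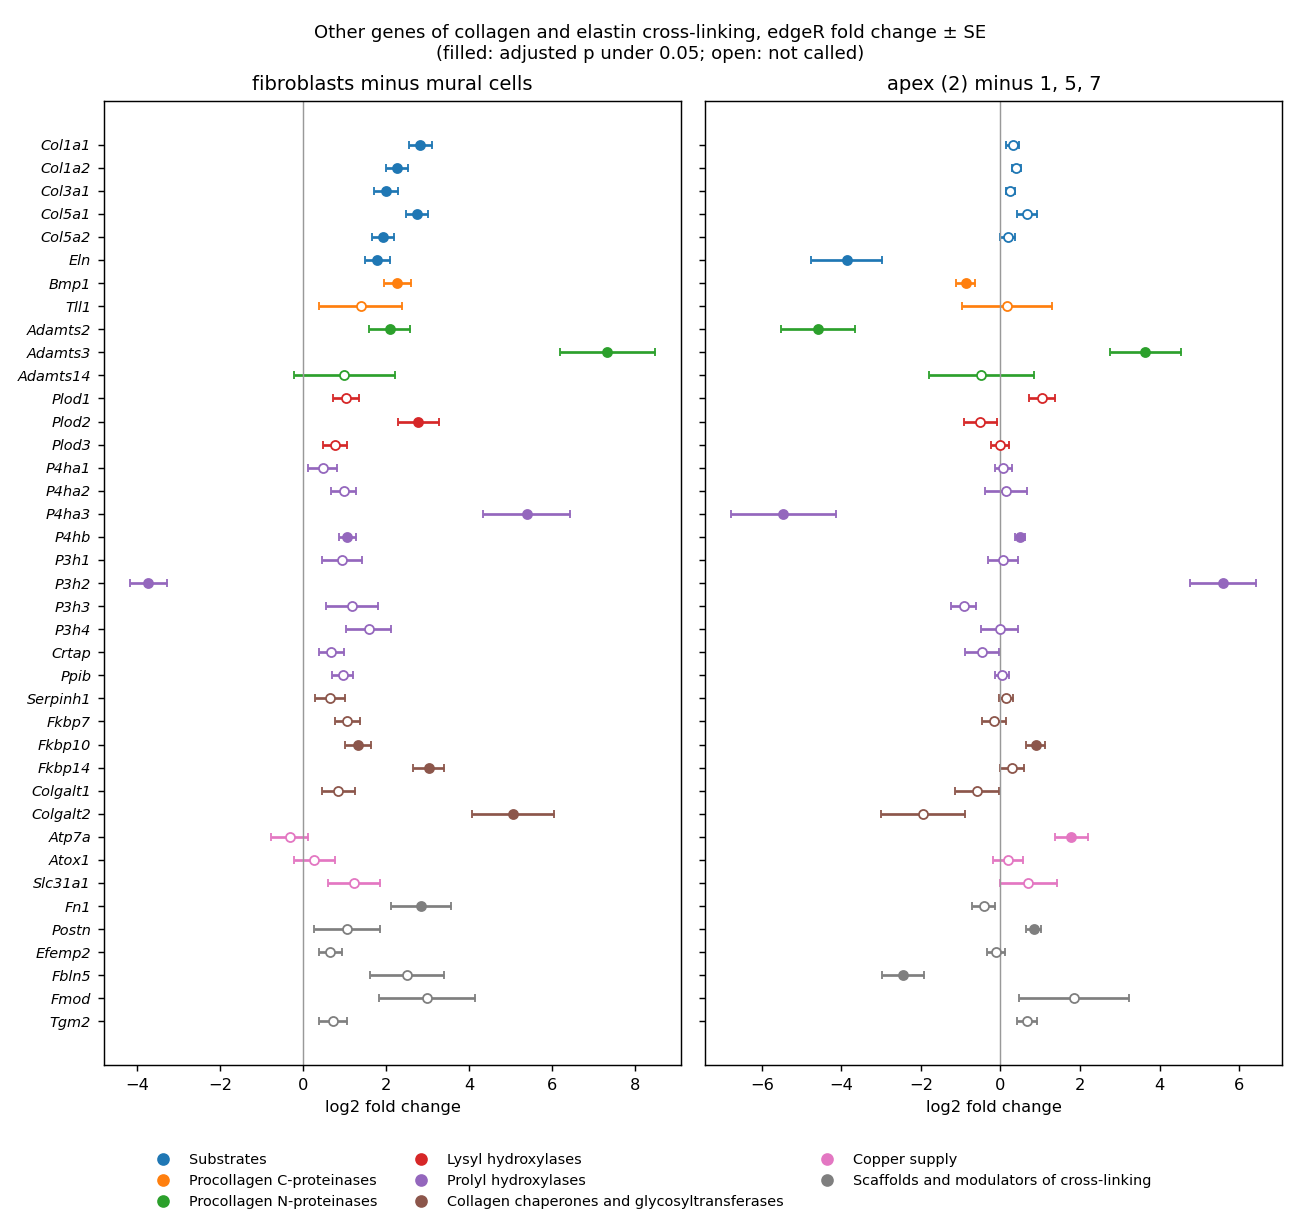
Log2 fold change (x axis) with its standard error for 39 other genes of collagen and elastin cross-linking, coloured by role, in fibroblasts against mural cells (left) and apex against clusters 1, 5 and 7 (right); filled points passed an edgeR adjusted p of 0.05. All 6 substrates are filled and right of 0 on the left, and on the right *Eln* is the single substrate that is filled, left of 0.

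Among mural cells, 37 pathway genes were tested, again in the unpaired fit. *Col5a2* (3.69) and *Col3a1* (3.41) were higher in pericytes than in vascular SMC, and the other 35 genes were not called, beside 0.263% of all genes called higher and 0.404% lower. In the single sum of interstitial SMC, from Acta2GFP, *Postn* (6.68), *Col5a2* (4.28), *Col3a1* (4.26) and *Col1a2* (1.99) were called higher than in the vascular SMC lines, and 33 genes were not called, beside 0.398% and 0.643% of all genes. These calls have no replicate in interstitial SMC and rest on the assumption that this sum varies like the others. Acta2GFP tissue also received elastase, whereas vascular SMC sums came from PdgfrbGFP and Cspg4dsRED as well. The part of line and dissociation in these differences was not tested.

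Genes with the most similar pattern to each of the 7 were looked up over the 21 groups of a cluster and a line with at least 10 cells, by Pearson's r of log2(level + 1) among 8283 genes with a mean level of at least 10. The groups share lines and depth, and the values are descriptions. *Loxl2* was closest to *Col5a1* (0.965), *Col3a1* (0.964) and *Col5a2* (0.963), all of them substrates on the list. *Pcolce2* was closest to *Adamtsl3* (0.977), *Ackr4* (0.970) and *Flrt2* (0.963), *Pcolce* to *C1ra* (0.964), *Rnase4* (0.957) and *Fbln1* (0.952), and *Loxl1* to *Plekho2* (0.944), *Fcgrt* (0.937) and *Svep1* (0.934). The nearest genes were less close for *Loxl4* (*Plekhg1*, 0.893; its own mean level was under 10), *Loxl3* (*Adamtsl4*, 0.892) and *Lox* (*Gm15270*, 0.823, and *Calcrl*, 0.818). Among the 7 genes, the highest r was 0.85 between *Loxl2* and *Pcolce*, followed by 0.80 between *Loxl1* and *Pcolce*, while the r of *Lox* with the other 6 lay between -0.36 and 0.10.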

How the data were processed

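The authors prepared SmartSeq2 libraries from cells in 384-well plates and mapped the reads to GRCm38. They removed with samtools what the methods call doublets, ran featureCounts, and deposited raw counts, which were used unchanged. Spike-ins (92 ERCC sequences, 1.36% of the total) did not enter, and positions and symbols (46005 of 46517 genes) came from GENCODE vM21. No molecular identifiers were used, so reads are not independent molecules. Exons of *Loxl2*, *Loxl3*, *Pcolce* and *Lox* overlap those of other genes, and strand was not stated to be used in counting. The highest count of any gene in any cell was 5793.

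Counts were summed per class and line (at least 10 cells), filtered by filterByExpr, scaled by TMM and compared by the quasi-likelihood test of edgeR, and p-values were adjusted by Benjamini-Hochberg. Clusters 1, 2, 5, 6 and 7 shared 1 fit, in which the apex was set against the mean of clusters 1, 5 and 7, and clusters 3, 4 and 8 shared another. A standard error is |log2 fold change| over the root of F. The 7 genes and the lists were chosen with earlier results of these data known. The text names all 7 genes, at most 3 called genes per role of the list with the largest fold change, and the closest 3 genes by pattern, of which some are given for 3 of the genes. The steps were tested on simulated data with known changes. Sums of fibroblasts and mural cells from the same line deviated together (r = 0.152 to 0.175 over 3 pairs), so the line was taken to pair them, and likewise for the crypt base and middle (0.125 to 0.175 over 3 pairs). Pairs with the apex did not all pass 0.1. Those of pericytes and vascular SMC did (0.150 to 0.157 over 2 pairs), and for them the line as a block is given beside the unpaired fit. Alternatives were DESeq2, no TMM, no filter, the line as a block, sums from 3 cells upward, plates as the unit, limma on cell means, and leaving out each line. Thinned shares leave out 11 cells below 50000 counts. Fits ran in R 4.3.3 (DESeq2 1.42.0, edgeR 4.0.16, limma 3.58.1) and the rest in Python 3.11.15 with scipy 1.17.1, pandas 2.3.3 and numpy 2.4.6.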

Additional observations from a re-analysis of the deposited data

Results flagged for a closer look

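In 35 sets of values the sample farthest from the others was tested by Dixon's criterion, which chance meets in about 1 of 20 sets. *Pcolce2* in cluster 5 was at 110.2 in the Cspg4dsRED line (13 cells), while the other 3 lines lay between 270.4 and 301.2. *Loxl3* in mural cells was at 75.1 on plate 073s of the PdgfrbGFP line (10 mural cells), while the other 5 plates lay between 17.5 and 32.4.

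In 6 cases the difference between classes pointed one way in all plates of some line and the other way in all plates of another; none of these disagreements between lines was tested. For fibroblasts against mural cells, the log2 difference ranged over 6 plates from -0.653 to 0.852 for *Lox* and from -0.334 to 3.75 for *Loxl4*. For the apex against clusters 1, 5 and 7 it ranged from -3.82 to 0.627 for *Loxl4* (5 plates). For the crypt base against the middle it ranged from -0.0989 to 0.955 for *Loxl2* (5 plates). For pericytes against vascular SMC it ranged from -1.46 to 2.41 for *Loxl3* and from -0.215 to 4.08 for *Pcolce2* (3 plates). Plates are not independent replicates of a line, and no cause was tested.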

How the results depend on the processing

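Of the fold changes recomputed under alternatives, 15 newly passed the threshold, 10 lost it and 18 changed sign, each of the last for a gene that was not called, and the others kept direction and call. The number of the 7 genes called changed by more than 1.5 times in these cases. Between pericytes and vascular SMC it was 1 with DESeq2, with no low-count filter and with plates in place of lines (each time *Loxl2*), against 0, while 5.92%, 1.85% and 2.18% of all genes were called. Between interstitial and vascular SMC it was 2 with DESeq2 and 1 with at least 3 cells per sum, with plates in place of lines and with limma, against 0, while 5.89%, 1.29%, 3.49% and 2.11% of all genes were called. With each line left out, it ranged from 1 to 4 for fibroblasts against mural cells (1.81 to 5.81% of all genes), 1 to 3 for the apex (2.70 to 8.27%), 0 to 1 for base against middle (0.0748 to 1.08%) and 0 to 2 for interstitial against vascular SMC (1.04 to 4.23%), the 1 and the 0 coming without PdgfrbGFP, without Acta2GFP and without Acta2GFP, respectively; interstitial SMC could not be fitted without Acta2GFP. DESeq2 gave no adjusted p for *Pcolce2* at the apex and at the base, so no count was made there.

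*Pcolce* at the apex was newly called with no TMM (-0.56), no filter (-0.53), plates (-0.48) and the line as a replicate block (-0.37). Without TMM the median of all genes in that comparison moved from 0.02 to -0.14. With the replicate block, signs changed for *Loxl1* between pericytes and vascular SMC (-1.27) and for *Lox* (0.11) and *Pcolce2* (-0.44) between interstitial and vascular SMC. The block changed no other call than those of *Pcolce2* (fibroblasts against mural cells) and *Pcolce* (apex). Over all fibroblast clusters same-line sums correlated by 0.0207 to 0.223, and for the apex the lines were not taken as pairs. Same-line sums of pericytes and vascular SMC correlated by 0.150 to 0.157 over 2 pairs, although their main fit was unpaired. For interstitial SMC, with a single sum, no such correlation could be made. Other sign changes, with the lowest and highest value where a line was left out, were *Pcolce* between base and middle (0.10 with at least 3 cells, 0.0705 with plates, 0.0955 with limma, 0.00196 without Acta2GFP, -0.0488 without PdgfraGFP), *Lox* between fibroblasts and mural cells (0.61 with limma, 0.0556 without Cspg4dsRED, -0.394 without Acta2GFP), *Loxl4* at the apex (-0.74 without Acta2GFP, 1.39 without PdgfraGFP), and, between pericytes and vascular SMC, *Loxl4* (-0.18 with plates, -0.0156 with limma, -3.48 without PdgfrbGFP, 0.348 without Cspg4dsRED), *Loxl1* (-0.76 with limma, -4.42 without PdgfrbGFP, 1.62 without Cspg4dsRED), *Pcolce2* (-0.24 with limma, -8.57 without PdgfrbGFP, 4.11 without Acta2GFP) and *Loxl3* (-0.00631 without Cspg4dsRED, 3.21 without PdgfrbGFP). The causes were not tested. Over all genes, DESeq2 called 2933, 2353, 768, 966 and 962 genes in the 5 comparisons in the order of the report, against 1259 and 1421 with edgeR in the first 2 and the shares given there in the others, and the blocked fit called 590 between fibroblasts and mural cells. Levels moved by more than 1 SD in 72 recomputed values, 42 of them with the median over cells in place of the mean. Few lines, uneven cell numbers and, for *Loxl4*, few cells with a count limit the precision.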
